A study of Caenorhabditis elegans with 24 samples.

Results

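Chaperone and small heat shock protein genes of the nematode Caenorhabditis elegans were followed through embryogenesis. They were chosen by name, as 10 of the 20687 worm genes in the count table. The HSP70 genes are hsp-1 (F26D10.3), hsp-3 (C15H9.6), hsp-4 (F43E2.8) and hsp-6 (C37H5.8), and the chaperonin gene is hsp-60 (Y22D7AL.5). The 5 small heat shock protein genes are hsp-12.1 (T22A3.2), hsp-12.2 (C14B9.1), hsp-12.6 (F38E11.2), hsp-25 (C09B8.6) and hsp-43 (C14F11.5). The embryos were of the wild-type strain N2, and the labels name no transgene, heat or other stress. They were taken from adults that had been cut open, and 50 embryos were pooled per sample. The 8 stages ran from 60 to 500 min after the 4-cell stage, with 120, 180 and 225 min as early stages and 270, 330 and 410 min as later ones between them, with 3 samples each and 24 libraries in all. The assay, CEL-Seq, reads 3′ ends of polyadenylated transcripts. Levels are given as CPM, counts scaled to a common library total, and therefore count transcript ends without division by length.

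Chaperones bind unfolded or partly folded proteins. HSP70 proteins do so in cycles driven by ATP, with separate forms for the cytosol, the endoplasmic reticulum (ER) and the mitochondrion, and chaperonins such as HSP-60 enclose a folding protein in a chamber. Many small heat shock proteins hold unfolding proteins without using ATP, and whether those followed here do so was not measured. In worms the hsp-16 genes are known for strong induction by heat, while other small heat shock proteins are made during normal development.

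Counts of worm genes per library ranged from 172620 to 977908, and 8279 genes had counts enough for a test, 9 of the 10 chaperone genes among them. The exception, hsp-12.6, had 1 count in all 24 libraries. Vitellogenins, yolk protein genes of the adult intestine and so a sign of RNA from the mothers, summed to between 0 and 1229 CPM per library. In 180 min replicate 1 and 330 min replicate 1, a list of 9 heat-inducible genes summed to 146 and 204 CPM, above every other library. Replicate 3 at 270 min had the highest sum of 10 body wall muscle genes of its stage, at 1185 CPM against 301.4 and 452.2 CPM. Replicates 1 and 2 of a stage carry the same running sample number in the labels. Nothing there says whether the 3 samples of a stage were separate collections, so p-values measure the spread between these samples, which may in part be technical.

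Each gene was tested over all stages and between stages with edgeR's quasi-likelihood test, with p-values adjusted by the Benjamini-Hochberg method over all 8279 genes and a threshold of 0.05. Over the time course 9 of 9 tested chaperone genes passed, where 91.6% of all tested genes did. Scaled to the spiked-in control RNA instead, 5 of the 9 passed, namely hsp-60 and the 4 tested small heat shock protein genes, where 5815 of all 8279 tested genes did. Between 60 and 500 min 6 of 9 were higher (46.1% of all tested genes) and 1 was lower (33.2%), and the median log2 change was 2.45 against 0.47 over all tested genes.

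The 4 tested small heat shock protein genes had at most 20.1 CPM in every library up to 225 min, and each had at least 273 CPM in every library at 500 min. Their summed level, with hsp-12.6 included, was 15.6 ± 8.5 CPM (SD, n = 3) at 60 min and 7.80 ± 5.13 CPM at 180 min. It then stood at 133 ± 70 CPM at 270 min and 599 ± 146 CPM at 330 min. By 410 min the sum was 2504 ± 146 CPM, and by 500 min 3412 ± 669 CPM. Because whole embryos were pooled, fewer cells that express a gene and less RNA per cell cannot be told apart. Over the same stages the sum of 10 body wall muscle genes went from between 56.8 and 351.5 CPM per library at 60 min to between 8762 and 10170 CPM at 500 min. Of these genes 10 of 10 rose (46.1% of all tested genes). The part of this growing muscle share in the small heat shock protein levels was not tested.

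**Figure D1:**
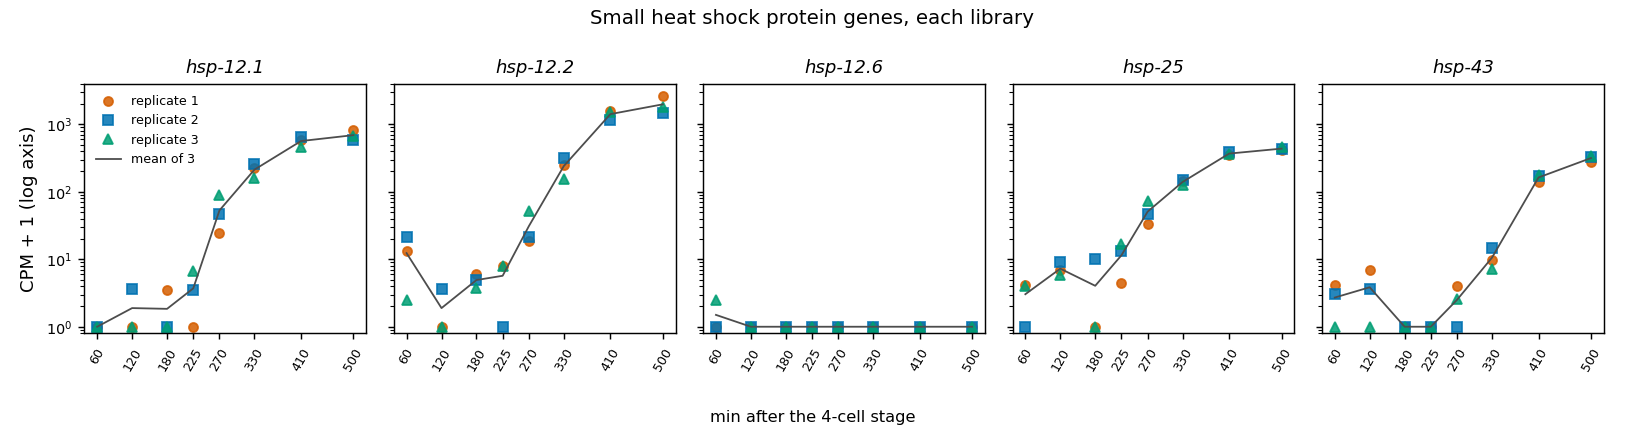
Level of each small heat shock protein gene in each library, as CPM + 1 on a log axis, against min after the 4-cell stage; markers are the 3 replicates and the line joins their means. For hsp-12.1, hsp-12.2 and hsp-25 every library at 270 min lies above every library at 60 to 225 min, except for hsp-12.2 in 60 min replicate 2, and hsp-43 follows later, while hsp-12.6 has 1 count, at 60 min.

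The most abundant of them at the end was hsp-12.2, which belongs to a worm family of very short small heat shock proteins. At 60 min it had 12.44, 20.05 and 1.50 CPM in replicates 1 to 3, from 4, 10 and 1 counts. At 120 min 0, 1 and 0 counts remained, and the ratio of the pooled levels gave an 11.68-fold lower level (95% counting interval 1.8 to 492). This step passed the test (edgeR adjusted p = 0.0466), but it rests on few counts and did not pass in 17 of 38 alternative analyses, among them those without 60 min replicate 1 (adjusted p = 0.0812) or replicate 2 (adjusted p = 0.244).

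Levels of hsp-12.2 were 17.7, 20.6 and 51.4 CPM at 270 min and 249, 315 and 153 CPM at 330 min. They reached 1583, 1140 and 1515 CPM at 410 min and 2637, 1469 and 1815 CPM at 500 min. From 60 to 500 min the log2 change was 7.54 ± 0.46 (edgeR adjusted p = 5.62e-14). Each stage from 330 to 410 min lay wholly above the one before, whereas the 410 and 500 min ranges overlapped. The log2 change was 2.63 ± 0.70 (SE) from 225 to 270 min (edgeR adjusted p = 0.0113), 2.86 ± 0.39 from 270 to 330 min (0.000105) and 2.59 ± 0.32 from 330 to 410 min (4.41e-07). The first of these did not pass in 4 of 38 alternatives. Without 270 min replicate 3 it was 1.93 (adjusted p = 0.157). It also did not pass without 225 min replicate 2 (0.0547), or without replicate 1 (0.0935) or replicate 3 (0.109) of every stage. From 410 to 500 min the log2 change was 0.47 ± 0.30 (adjusted p = 0.302). The largest hsp-12.2 count, 960, was close to the largest value in the whole table, and hsp-12.2 had over 500 counts in 3 libraries, where levels may be compressed. Corrected as if counts were limited by the number of identifiers, that last change was 0.97 and passed (adjusted p = 0.0166).

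No count of hsp-12.1, a member of the same short family, was seen in the 3 libraries at 60 min, and 1 count each was seen at 120 and 180 min. Its levels were 23.6, 45.03 and 87.2 CPM at 270 min, 223, 254 and 156 CPM at 330 min, and 577, 651 and 461 CPM at 410 min. At 500 min they were 808, 586 and 672 CPM. The 270, 330 and 410 min ranges did not overlap one another, and those at 410 and 500 min did. The log2 change was 3.88 ± 0.57 from 225 to 270 min (edgeR adjusted p = 9.32e-06), 1.90 ± 0.30 from 270 to 330 min (0.000166) and 1.45 ± 0.26 from 330 to 410 min (5.86e-05). The step from 270 to 330 min was lost without replicate 2 of every stage (0.0996) and with spike-in scaling (0.0544), and that from 330 to 410 min with spike-in scaling (0.263). Without replicate 2, 12 of all 8160 genes tested passed from 270 to 330 min, against 634 of 8279 as reported. Against a floor of 3 counts over the 60 min group, the 500 min level of hsp-12.1 was at least 320-fold higher.

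The third gene of the early group was hsp-25, whose protein is known from body wall muscle and other tissues of the worm. From 60 to 180 min it had between 0 and 7 counts per library. Its levels were 32.5, 45.03 and 71.6 CPM at 270 min, 143, 147 and 126 CPM at 330 min, and 345, 393 and 363 CPM at 410 min. At 500 min they were 413, 427 and 464 CPM, each above every 410 min library, although the log2 change of 0.25 ± 0.24 did not pass (edgeR adjusted p = 0.55). The 3 steps before it passed, with log2 changes of 2.1 ± 0.42, 1.40 ± 0.29 and 1.42 ± 0.25. The second of these was lost without replicate 2 of every stage (0.113) and with spike-in scaling (0.219), and the third with spike-in scaling (0.287). Without replicate 2, 12 of all 8160 genes tested passed at the second step, against 634 of 8279 as reported. From 60 to 500 min the hsp-25 level was 217-fold higher (95% counting interval 74.0 to 1060), from 3 counts over the 60 min libraries. From 180 to 225 min hsp-25 did not pass (adjusted p = 0.3), except without replicate 2 or without 180 min replicate 2, which held all 7 counts of that stage (adjusted p = 0.012 without that library).

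The last to rise was hsp-43, a longer member of the small heat shock protein family. It had 1, 1 and 0 counts at both 60 and 120 min and 1, 0 and 1 counts at 270 min. No count was seen at 180 or 225 min, and levels were 8.59, 13.8 and 6.22 CPM at 330 min, from 5, 5 and 7 counts. They were 138, 169 and 179 CPM at 410 min and 273, 328 and 343 CPM at 500 min. Each of these 3 stages lay wholly above the one before. From 60 to 500 min the hsp-43 level was 242.6-fold higher (95% counting interval 66.7 to 2010), from 2 counts over the 60 min libraries. The log2 change was 4.21 ± 0.38 from 330 to 410 min (edgeR adjusted p = 2.58e-10) and 0.98 ± 0.27 from 410 to 500 min (0.00699). The latter was lost without replicate 2 (0.101) or replicate 3 (0.06) of every stage and with spike-in scaling (0.61). The step from 270 to 330 min was 6.22-fold in pooled levels (95% counting interval 1.48 to 55.5) and did not pass (adjusted p = 0.0543), though it did without 330 min replicate 3 (0.0439).

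Only 1 count of hsp-12.6, in worms a known target of the insulin-pathway transcription factor DAF-16, was seen, in 60 min replicate 3. In each of the other libraries 0 counts allow a level of up to between 2.67 and 18.2 CPM, depending on depth. Its neighbour on the same strand, hsp-12.3, had 0 counts up to 270 min and 18.2, 9.18 and 20.9 CPM at 500 min, from 3, 6 and 9 counts. Counting intervals and limits of this kind cover counting error only.

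Annotated positions on the WBcel235 assembly touch these values for a pair of genes, since strand use in counting is not given in the sources used here. The gene hsp-12.2 overlaps C14B9.8 on the opposite strand by 11 bp, and hsp-25 overlaps ipp-5 on the opposite strand by 53 bp. C14B9.8 stayed between 43.5 and 57.9 CPM on average from 120 to 500 min, the stages over which hsp-12.2 went from 0.889 to 1974 CPM. For ipp-5 the mean was 0.573 CPM at 330 min, 15.3 CPM at 410 min and 243 CPM at 500 min, when hsp-25 stood at 139, 367 and 435 CPM. The part of these overlaps in the levels was not tested. The 3 genes of the set on chromosome X, hsp-25, hsp-3 and hsp-43, lie within 201 kb of one another.

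In the cytosol hsp-1, which encodes the constitutive HSP70, formed a shallow trough. Its levels were 224, 376.9 and 366 CPM at 60 min, 141, 278 and 201 CPM at 180 min, and 408, 526 and 599 CPM at 410 min. At 500 min they were 194, 660 and 672 CPM, and so 1 library lay below all of the 60 min libraries. Replicate 1 was the lowest of the 3 at 8 of 8 stages for hsp-1 and at 6 of 8 for hsp-6. All neighbours in the order of stage means overlapped. From 60 to 500 min the log2 change was 0.70 ± 0.33 and did not pass (edgeR adjusted p = 0.0527). Without 500 min replicate 1 it was 0.97 and passed (adjusted p = 0.00103), as it did without replicate 1 of every stage (0.00136) and with replicates 1 and 2 of each stage summed (0.000713). Over the time course hsp-1 passed (adjusted p = 0.00229), but not when all libraries of replicate 3 were left out (0.236). Nor did it pass with library size alone (0.125) or with spike-in scaling (0.0728).

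**Figure D2:**
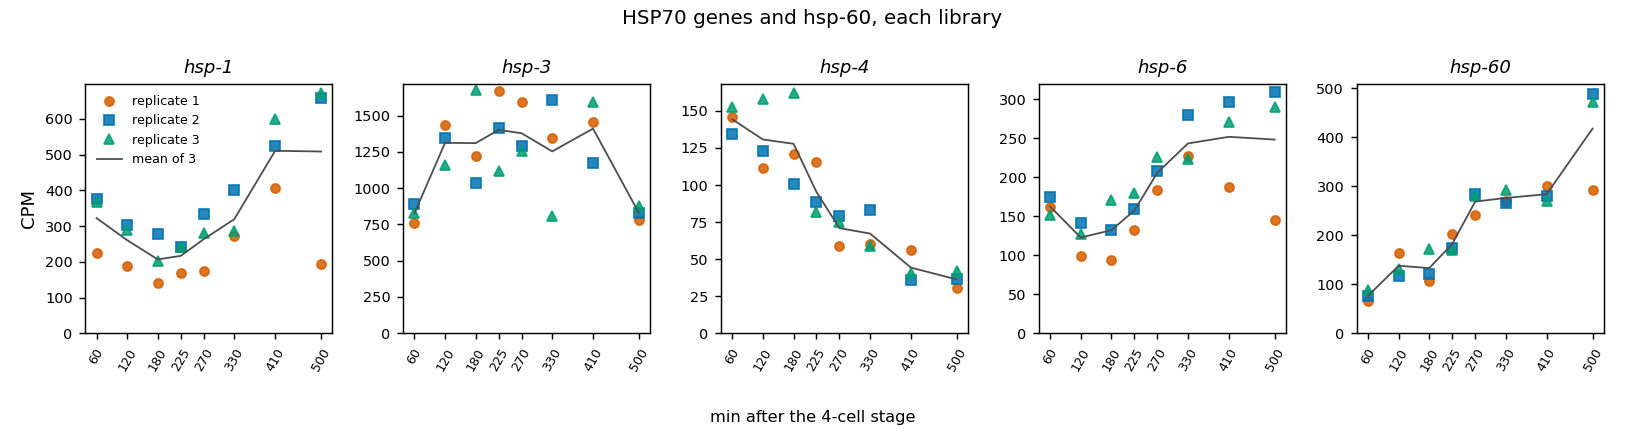
CPM of each HSP70 gene and of hsp-60 in each library against min after the 4-cell stage, each panel with its own axis from 0; markers are the 3 replicates and lines join their means. Replicate 1 is the lowest hsp-1 library at all 8 stages, and hsp-4 declines. The hsp-3 means form a plateau between lower ends, with replicate 3 at 330 min within the range of the ends. That library held 907 counts of hsp-3, the most of any, and its level may be compressed.

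In the ER the HSP70 forms hsp-3 and hsp-4, both worm counterparts of mammalian BiP, took different courses. The abundant form was hsp-3, with 759, 890 and 831 CPM at 60 min and 1436, 1344 and 1156 CPM at 120 min, where the ranges no longer overlapped. Means from 120 to 410 min stayed between 1253 and 1410 CPM, but 330 min replicate 3, at 806 CPM, lay within the 60 and 500 min ranges. Over the time course hsp-3 passed (edgeR adjusted p = 0.00425). It did not without replicate 1 of every stage (0.152), with DESeq2 size factors (0.0611) or with spike-in scaling (0.242). At 500 min hsp-3 had 778, 830 and 879 CPM, wholly below the 410 min libraries of 1458, 1176 and 1596 CPM. The log2 change was 0.66 ± 0.23 from 60 to 120 min (edgeR adjusted p = 0.0174) and -0.76 ± 0.23 from 410 to 500 min (0.0136). The first failed to pass with DESeq2 (adjusted p = 0.0532), and was lost in 10 of 38 alternatives in all, among them those without 60 min replicate 1 (0.0859), 60 min replicate 3 (0.0558) or 120 min replicate 1 (0.0825). The second was lost without replicate 1 (0.0851) or replicate 3 (0.0522) of every stage and with spike-in scaling (0.371). The ends differed by 0.01 ± 0.23 (adjusted p = 0.985), but with library size alone as the scaling hsp-3 was lower at 500 min, by -0.42 (0.0406). It exceeded 500 counts in 14 libraries, where the plateau may be compressed.

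The less abundant ER form, hsp-4, is known in worms as a reporter of the unfolded protein response of the ER. Its levels were 146, 134 and 153 CPM at 60 min, 59.1, 78.8 and 74.8 CPM at 270 min and 30.4, 36.7 and 41.7 CPM at 500 min. None of these 3 stages overlapped another. It fell by 1.94 ± 0.27 on the log2 scale from 60 to 500 min (edgeR adjusted p = 6.12e-08), while no single step between neighbouring stages passed. The mean log2 ratio of hsp-4 to hsp-3 went from -2.51 ± 0.19 (SD, n = 3) at 60 min to -4.49 ± 0.14 at 500 min. That difference of -1.98 had an exact two-sided permutation p of 0.1, the smallest that 3 samples against 3 can give. Reads that match both of these close paralogs could be split between them in a way the sources used here do not give.

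Mitochondrial hsp-6 and hsp-60, the HSP70 and the chaperonin of the matrix, are both used in worms as reporters of the mitochondrial unfolded protein response. For hsp-60 the levels were 65.3, 76.2 and 88.2 CPM at 60 min, 164, 117 and 132 CPM at 120 min and 242, 283 and 280 CPM at 270 min. They stayed between 265 and 301 CPM at 330 and 410 min and were 292, 488 and 473 CPM at 500 min. All 500 min libraries thus lay above all 60 min libraries, and replicate 1 was the lowest at 500 min. The log2 change from 60 to 500 min was 2.45 ± 0.22 (edgeR adjusted p = 3.28e-12). The step from 60 to 120 min passed with 0.79 ± 0.24 (0.00678), and that from 410 to 500 min with 0.59 ± 0.20 (0.0342). The first was lost in 5 of 38 alternatives, among them those without replicate 1 (0.0704), replicate 2 (0.0554) or replicate 3 (0.0538) of every stage and with spike-in scaling (0.529). The second was lost in 13 of 38 alternatives, among them those without 500 min replicate 2 (adjusted p = 0.187) or replicate 3 (0.158) and those without any 1 of the 410 min libraries (0.0605 to 0.115).

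The matrix HSP70 gene hsp-6 moved less, with 162, 174 and 151 CPM at 60 min, 99.7, 141 and 127 CPM at 120 min, 227, 279 and 224 CPM at 330 min and 146, 309 and 290 CPM at 500 min. The 500 min library of replicate 1 was again below all 60 min libraries. The log2 change from 60 to 500 min was 0.68 ± 0.23 (edgeR adjusted p = 0.00861), and no step between neighbouring stages passed. It did not pass in 9 of 38 alternatives, among them those without 500 min replicate 2 (adjusted p = 0.107) or replicate 3 (0.0646), without 60 min replicate 3 (0.0629) and with library size alone (log2 change 0.25, 0.343). The mean log2 ratio of hsp-60 to hsp-6 went from -1.08 ± 0.28 (SD, n = 3) at 60 min to 0.79 ± 0.18 at 500 min. The difference was 1.87, again with an exact two-sided permutation p of 0.1, the smallest possible.

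**Figure D3:**
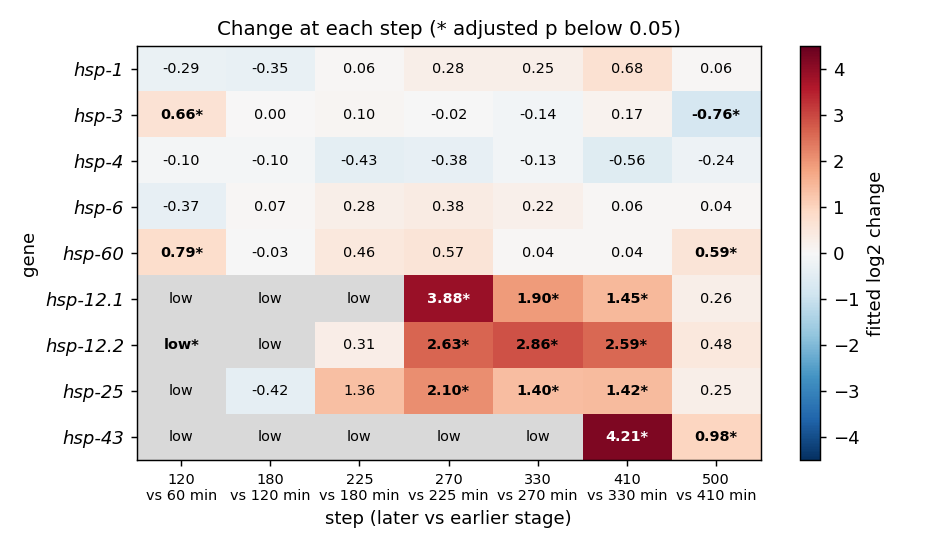
Fitted log2 change of each tested gene at each step between neighbouring stages, with an asterisk where the adjusted p was below 0.05; grey cells marked low have 3 or fewer counts in all at 1 of the stages. Passing steps of hsp-12.1, hsp-12.2 and hsp-25 fill the columns from 270 to 410 min.

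Taken by step, 2 chaperone genes were higher at 120 than at 60 min, hsp-3 and hsp-60 (23.6% of all tested genes), and 1 was lower, hsp-12.2 (20.1%). From 120 to 180 min 0 of 9 passed in either direction (8.17% higher and 9.22% lower of all tested genes), with 0 at an unadjusted p below 0.05, and DESeq2 gave 0 as well. From 180 to 225 min 0 of 9 passed (3.07% higher, 2.57% lower), with 2 at an unadjusted p below 0.05, hsp-60 and hsp-25, and 0 with DESeq2. From 225 to 270 min 3 were higher (8.2%) and 0 lower (4.11%), and from 270 to 330 min 3 were higher (6.17%) and 0 lower (1.49%). In both steps these were hsp-12.1, hsp-12.2 and hsp-25. From 225 to 270 min hsp-60 changed by 0.575 ± 0.206 on the log2 scale, without overlap of the ranges, and did not pass (edgeR adjusted p = 0.0619). That hsp-60 step passed in 9 of 38 alternatives, DESeq2 among them (DESeq2 adjusted p = 0.0224). From 330 to 410 min the 4 tested small heat shock protein genes were higher (18.8%) and 0 genes of the set lower (11.2%). From 410 to 500 min hsp-60 and hsp-43 were higher (14.5%) and hsp-3 was lower (7.38%).

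As a family the 4 HSP70 genes had sums within a narrower range than the small heat shock protein genes. Their sum was 1456 ± 148 CPM at 60 min and 1918 ± 86 CPM at 270 min. At 410 min it was 2217 ± 253 CPM, and 1622 ± 411 CPM followed at 500 min. Of the summed level of all 10 genes, the small heat shock proteins made up 1.02% ± 0.56 at 60 min and 21.6% ± 0.67 at 330 min. Their share was 50.1% ± 2.4 by 410 min and 62.4% ± 10 by 500 min. The share of hsp-3 alone went from 53.5% ± 1.6 at 60 min through 68.0% ± 5.6 at 180 min to 15.2% ± 1.1 at 500 min. These shares are of transcript ends and need no scaling between libraries. Neither the shares nor the sums were corrected for the possible compression of high hsp-3 and hsp-12.2 counts.

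**Figure D4:**
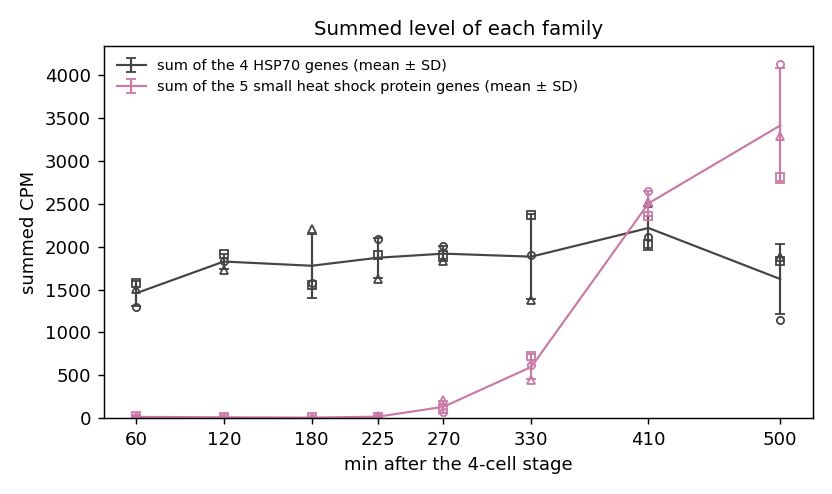
Summed CPM of the 4 HSP70 genes and of the 5 small heat shock protein genes against min after the 4-cell stage; open markers are libraries (circle, square and triangle for replicates 1, 2 and 3) and lines join means with SD bars. The small heat shock protein sum stands at 2504 CPM at 410 min and 3412 CPM at 500 min. Sums are not corrected for the possible compression of high counts. At both stages it is above the HSP70 sum in all 3 replicates, by little in replicate 3 at 410 min (2518 against 2506 CPM).

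Other small heat shock protein genes of the worm did not share one course. Of 13 others looked up, 1 had counts enough for a test: sip-1, known as a small heat shock protein of oocytes and embryos. Its levels were 1583, 1821 and 1419 CPM at 60 min and 199, 357 and 353 CPM at 120 min, and 24.3, 109 and 27.8 CPM at 500 min. It fell by 4.67 ± 1.07 on the log2 scale from 60 to 500 min (edgeR adjusted p = 0.000731), and all 3 early libraries lay above all later ones. At 410 min its replicates spread widely, with 0, 593 and 34.6 CPM. Thus at 60 min sip-1 was higher than the 5 small heat shock protein genes of the set together, and at 500 min it was lower. The 12 without a test had stage means of at most 24.3 CPM. Some hsp-16 genes among them share a symbol in the annotation, and their reads may be split or lost.

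**Figure D5:**
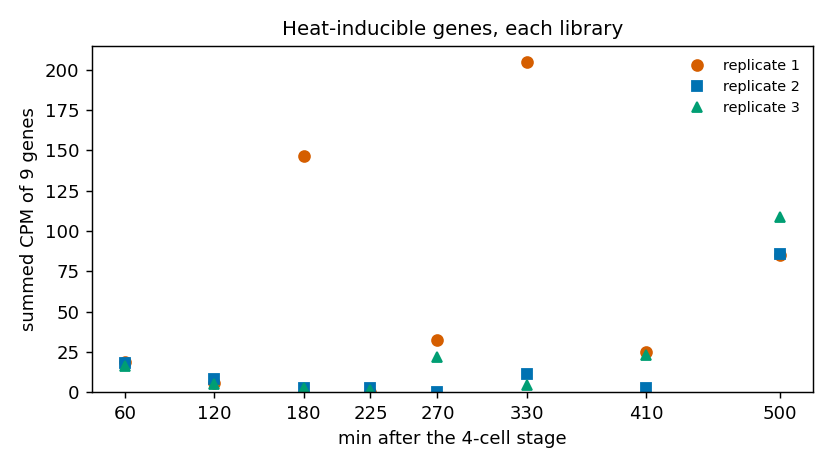
Summed CPM of 9 heat-inducible genes in each library against min after the 4-cell stage, by replicate. Replicate 1 stands alone at 180 min (146.4 CPM) and 330 min (204.4 CPM), and at 500 min all 3 libraries lie between 85.07 and 108.9 CPM.

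The heat-inducible list (6 hsp-16 genes, hsp-70, F44E5.4 and F44E5.5) summed to 58 counts (146 CPM) in 180 min replicate 1 and 119 counts (204 CPM) in 330 min replicate 1. The other libraries up to 410 min had between 0 and 32.5 CPM, and those at 500 min between 85.07 and 108.9 CPM. In 330 min replicate 1 the near-identical pair F44E5.4 and F44E5.5, HSP70 genes, gave 44 and 40 counts, which counting may have split between them. The annotation gives hsp-16.1 and hsp-16.11 the same symbol, and likewise hsp-16.48 and hsp-16.49. Reads of these pairs may also have been split or lost. The inducible hsp-70 had 1 count in all 24 libraries. At 330 min replicate 1 lay between the other replicates for hsp-12.1, hsp-12.2, hsp-25 and hsp-43. At 180 min replicate 1 was the highest of the stage for hsp-12.1 (1 count) and hsp-12.2 (2 counts) and had 0 counts of hsp-25 and hsp-43. Without both libraries, chosen after seeing the data, 7 genes of the set passed between 60 and 500 min as before, and 3 at each of the steps from 225 to 270 and from 270 to 330 min.

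Other chaperones of each compartment moved in both directions between 60 and 500 min. Among cytosolic HSP90, HSP110 and co-chaperone genes 4 of 13 tested rose (46.1% of all tested genes) and 5 fell (33.2%). Their median log2 change was -0.13 against 0.47 over all tested genes. The co-chaperone bag-1 fell by 2.73 ± 0.26 and the J-domain gene dnj-13 rose by 1.83 ± 0.27, while unc-23, a BAG-domain gene, went from 0 in all 60 min libraries to 142 ± 26 CPM. Of 12 tested genes of the CCT chaperonin and prefoldin, which help fold actin and tubulin, 3 rose (46.1%) and 4 fell (33.2%). The median of these 12 was -0.26. The subunit gene cct-7 rose by 1.71 ± 0.22, and the prefoldin genes pfd-6 and pfd-5 fell by 1.46 ± 0.27 and 0.96 ± 0.18.

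Among 12 tested ER chaperones and folding enzymes 2 rose (46.1% of all tested genes) and 2 fell (33.2%) over the same interval (median 0.23). The HSP90 of the ER, enpl-1, rose by 1.30 ± 0.25, the disulfide isomerase pdi-3 rose by 0.82 ± 0.23 and pdi-1 fell by 0.71 ± 0.20. From 60 to 120 min 5 of these 12 rose and 1 fell, and from 410 to 500 min 0 rose and 5 fell, where 23.6% and 20.1% of all tested genes were higher and lower at the first step and 14.5% and 7.38% at the second. Of 9 tested mitochondrial chaperones and proteases 5 rose (46.1% of all tested genes) and 1 fell (33.2%) from 60 to 500 min (median 0.89). The prohibitin genes phb-1 and phb-2 rose by 1.94 ± 0.25 and 1.17 ± 0.23, and the protease lonp-1 fell by 1.90 ± 0.34. Reads of bag-1, dnj-13, unc-23, cct-7, enpl-1, phb-2 and sip-1 are uncertain because each overlaps another annotated gene, coding or noncoding.

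Regulators of the heat shock and unfolded protein responses were measured as well. From 60 to 500 min 6 of 13 tested rose (46.1% of all tested genes) and 2 fell (33.2%), with a median of 0.56. The transcription factor gene dve-1, of the mitochondrial response, rose by 2.69 ± 0.30, and xbp-1, of the ER response, rose by 1.75 ± 0.25 while hsp-4 fell. The zinc finger factor gene pqm-1 went from 0 in all 60 min libraries to 51.9 ± 23.97 CPM. The heat shock factor gene hsf-1, named here after its values were seen, had 260 ± 17 CPM at 60 min and 478.2 ± 48 CPM at 500 min, a log2 change of 0.88 ± 0.20 (edgeR adjusted p = 0.000187).

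The genes whose levels tracked each chaperone most closely are given as a description, as the highest Pearson r of log2(CPM + 1) over the 24 libraries, which share their stages and depths. For hsp-3 they were T09B4.5 (r = 0.922) and pdi-2, an ER disulfide isomerase (0.921), and for hsp-1 atp-1, of the mitochondrial ATP synthase (0.916), and E01G4.3 (0.855). The closest to hsp-4 were K05C4.7 (0.95) and npp-5, of the nuclear pore (0.949). Those closest to hsp-60 were nrfl-1 (0.954) and coel-1 (0.94), and to hsp-6 the collagen gene col-157 (0.902) and unc-26 (0.878). Closest to the small heat shock protein genes were ZK287.1 (0.987) and F33H2.8 (0.98) for hsp-12.1, R09F10.5 (0.97) and F54E4.3 (0.969) for hsp-12.2, F15G9.1 and the syntrophin gene stn-1 (both 0.953) for hsp-25, and nep-22 (0.971) and T03G6.1 (0.967) for hsp-43. Reads of atp-1, E01G4.3, pdi-2, unc-26, nrfl-1, coel-1, ZK287.1, F54E4.3, F15G9.1 and stn-1 are likewise uncertain because each overlaps another annotated gene. Within the set r was 0.949 between hsp-12.1 and hsp-25, -0.922 between hsp-4 and hsp-25, and 0.134 between hsp-3 and hsp-4.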

How the data were processed

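Whole-embryo RNA from 24 libraries was measured by CEL-Seq. The authors deposited 1 table of raw counts per gene, with 92 spike-in controls; per the submitters' processing notes HTSeq was used, and the aligner, genome build, annotation, strand setting and use of molecular identifiers were, in the sources used here, not given. All values are at most 1023. Columns were matched to samples by their description labels. Gene names came from the WBcel235 annotation, which held 20083 of the 20687 worm gene IDs.

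Spike-ins were set aside, genes were kept with edgeR 4.0.16 filterByExpr (minimum count 10, minimum total 15; 8279 genes, 98.21% of counts), library sizes were summed over the kept genes and scaled by TMM (factors 0.78 to 1.171), and stage was fitted over all 24 libraries with robust quasi-likelihood (16 residual degrees of freedom; R 4.3.3). The standard error is the log2 change divided by the square root of F. A first version took library sizes over all worm genes. It was replaced after both results were seen, to follow an earlier description of these data, and is kept as an alternative. CPM used the same scaled sizes, and log2 ratios used CPM + 1. A ratio of pooled levels with 1 to 3 counts on a side has an exact 95% interval, and the floor for 0 is 3 counts. The fit was tested on simulated data.

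The genes and gene lists were chosen with earlier results of these data known. All 10 genes are described, with up to 3 genes per list of lowest adjusted p between 60 and 500 min (hsf-1 and hsp-12.3, the nearest gene to hsp-12.6, were added after their values were seen), and the 2 genes of highest correlation per gene. Of 106 list entries 103 were matched; hyou-1, hsp-10 and grpe-1 were not. The planned name trap-1 belongs to another worm gene, so hsp-75 was used. Alternatives were DESeq2 1.42.0, its size factors, library size alone, spike-in scaling (69 controls), no filter, a replicate block, a correction for 1024 identifiers, replicates 1 and 2 summed, the 4 libraries with most vitellogenin left out, each library or replicate number left out, and the 2 added after seeing the data. Promoter, transcript and protein sequences were not used here.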

Additional observations from a re-analysis of the deposited data

How the results depend on the processing

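Of 3078 re-computed values of single genes, 2972 kept their direction and side of the threshold, 78 lost their call, 27 gained one and 1 reversed; a change of sign where neither version passed counts among the first. The reversal was hsp-3 between 60 and 500 min, -0.42 with library size alone against 0.01. Spike-in scaling moved the number of passing genes to 5 over the time course, 1 at 120 against 60 min, 1 at 330 against 270 min, 2 at 410 against 330 min and 0 at 500 against 410 min (0 also at an unadjusted p below 0.05; DESeq2 with its own scaling gave 3). Over all 8279 tested genes it gave 5815, 1304, 131, 931 and 719 calls in these comparisons, against 7585, 3612, 634, 2484 and 1814. At 120 against 60 min the number was also 1 with replicates 1 and 2 summed and 0 without the 4 libraries richest in vitellogenin (1 at an unadjusted p below 0.05). The cause was not tested. With a library or replicate number left out, the number ranged from 0 to 3 at 120 against 60 min, 0 to 1 at 225 against 180 min, 1 to 4 at 330 against 270 min and 0 to 3 at 500 against 410 min. At 120 against 60 min the 0 came without replicate 1 or without replicate 2 (1 and 3 genes at an unadjusted p below 0.05), and at 500 against 410 min without replicate 3 (2 genes). At 330 against 270 min the low of 1 came without replicate 2, which leaves 2 samples per stage. In that setting hsp-12.1 (edgeR adjusted p = 0.0996) and hsp-25 (0.113) did not pass from 270 to 330 min. Over all 8160 genes tested there, 12 passed, against 634 of 8279 as reported.

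Library size alone put the median log2 change of all tested genes at 0.048 between 60 and 500 min, against 0.473, and split the calls into 3386 higher and 3249 lower in place of 3814 and 2751; at 410 against 330 min it gave -0.318, against -0.016, with 1212 higher and 1798 lower in place of 1557 and 927. Spike-in scaling gave -0.459 at that step and 0.305, against 0.046, at 330 against 270 min. Library sizes over all worm genes changed no call of the 9 genes, with 0.64 (edgeR adjusted p = 0.0717) for hsp-1 between 60 and 500 min.

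Replicate numbers do not pair the samples by the labels. Same-numbered libraries of different stages had a median correlation of deviations of 0.0734 (-0.169 to 0.352), and 33 of 84 were over 0.1. For pairs with other numbers the median was -0.0462, and 8 of 168 were over 0.1. Pairs of number 1 had a median of 0.155 (0.0179 to 0.352), those of number 2 of 0.0934 and those of number 3 of 0.0224. Of 24 libraries 17 correlated best with their own number, a hint from the data and not from the design. With a replicate block 9 genes passed over the time course, 8 between 60 and 500 min with hsp-1 among them (edgeR adjusted p = 0.00195), and 2, 0, 0, 4, 4, 5 and 3 at the successive steps. The paired ratios gave -1.98 for hsp-4 to hsp-3 and 1.87 for hsp-60 to hsp-6.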
